A study of Mus musculus with 12 samples.

Results

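The cytochrome P450 genes of families 1 to 3 were examined in the liver RNA of mice labelled control or MED13-LKO, fasted or fed a sugar. The members were all genes whose mouse symbol is Cyp followed by 1, 2 or 3, a subfamily letter and a number, without pseudogenes, which gave 49 of the 16346 genes in the table of normalized counts. Of 58 such genes in the annotation, 9 have no row in that table and were not analysed here. A mean normalized count of at least 10 over all 12 libraries was required for testing, and 39 members passed this filter while 10 did not. The rule reads the symbol alone and uses no measured value.

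All mice were C57BL6J and 12 weeks old, and each of the 6 groups held 2 mice. The control mice were *Med13* fl/fl, in which the *Med13* gene is floxed and intact, and the MED13-LKO mice carried the same floxed gene with *Alb*-Cre, a recombinase driven by the albumin promoter and therefore active in hepatocytes. *Med13* encodes a subunit of the kinase module of the Mediator complex, which links transcription factors to RNA polymerase II. Mice of each genotype were fasted overnight for 16 h, or were refed normal chow for 4 h and drank water holding 30% sucrose or 30% fructose. Fed groups therefore differ from fasted groups in chow as well as in sugar. By the methods of the study, fed mice were also killed later in the day, so feeding and hour cannot be told apart. *Med13* RNA itself was no lower under the MED13-LKO label: the normalized counts were 674 and 796 (fasted), 578 and 673 (sucrose) and 607 and 778 (fructose) in the control mice, and 808 and 899 (fasted), 646 and 717 (sucrose) and 681 and 1055 (fructose) in mice labelled MED13-LKO. The log2 difference was 0.22 ± 0.11, adjusted p = 0.201 by limma, and the part of the transcript that these values count is not given in the sources used here. Western blots in the study showed MED13 protein almost lost from liver nuclei of its MED13-LKO mice. The RNA values here do not settle this for the sequenced mice. Every direction between genotypes below is therefore a difference between libraries carrying these labels.

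Cytochrome P450 enzymes are heme proteins of the endoplasmic reticulum that insert an oxygen atom into their substrates with electrons passed on by P450 oxidoreductase. Those of families 1 to 3 take up drugs, plant and food compounds, steroids, retinoids and fatty acids, and the liver is where most of them are most abundant. Many of their genes lie in tandem clusters of recent duplicates, are induced through the receptors AHR, CAR and PXR, and in mouse liver several are expressed mainly in one sex under the pattern of growth hormone secretion.

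The close copies matter for every value that follows, since the reads were assigned to transcripts by 31-base subsequences. Of the 49 members, 23 shared at least 20% of their 31-base subsequences with some other gene, and 18 of these were among the 39 tested. *Cyp2a4* and *Cyp2a5* are the clearest pair: 55.9% of the subsequences of *Cyp2a4* occur in *Cyp2a5* and 44.9% of those of *Cyp2a5* occur in *Cyp2a4*. Their coding sequences, each of 1485 bases, differ at 23 bases (98.45% identical), and the longest stretch without a difference is 216 bases. The same 120 coding bases of exon 2 are printed here from GENCODE M21 on GRCm38, to show how little separates the genes, with the 4 bases that differ in capitals:
Cyp2a4 (chr7:26307662-26307781, plus strand): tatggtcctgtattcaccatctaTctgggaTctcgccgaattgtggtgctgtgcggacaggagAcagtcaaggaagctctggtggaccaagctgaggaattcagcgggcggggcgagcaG
Cyp2a5 (chr7:26835807-26835926, plus strand): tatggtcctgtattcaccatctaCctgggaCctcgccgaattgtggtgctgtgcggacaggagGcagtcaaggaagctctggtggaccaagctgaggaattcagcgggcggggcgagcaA
Reads that cover none of the capitals fit both genes equally in this stretch. The copies *Cyp2c67*, *Cyp2c68* and *Cyp2c69* are similarly close, with 96.54% to 97.7% of their 1476 coding bases identical between pairs. Their matching 120 bases of exon 2 follow, and the capitals mark the 12 positions that are not the same in all of them:
Cyp2c67 (chr19:39643604-39643723, minus strand): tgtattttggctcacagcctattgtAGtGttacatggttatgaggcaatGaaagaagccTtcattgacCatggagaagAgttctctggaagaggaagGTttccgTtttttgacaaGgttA
Cyp2c68 (chr19:39739388-39739507, minus strand): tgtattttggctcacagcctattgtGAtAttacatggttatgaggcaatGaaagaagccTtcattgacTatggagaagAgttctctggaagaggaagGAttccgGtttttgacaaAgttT
Cyp2c69 (chr19:39881458-39881577, minus strand): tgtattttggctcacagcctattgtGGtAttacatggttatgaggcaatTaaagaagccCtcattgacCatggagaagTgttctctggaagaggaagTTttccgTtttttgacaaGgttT
Members were grouped where at least 20% of the subsequences of either occur in the other member, which gave 8 groups with 20 members in all, and the summed normalized count of each group is given beside the single genes, since a sum does not depend on how reads were divided within it.

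The upstream sequences of members that differed most between genotypes are shown next, from RefSeq on GRCm38.p6 and ended before the first annotated transcript base, because copies with unlike genotype differences in RNA can be close in this window too. In *Cyp2a4* and *Cyp2a5*, 249 upstream bases could be compared and 4 differed (98.4% identical), marked by capitals:
Cyp2a4 (chr7:26306942-26307168, plus strand): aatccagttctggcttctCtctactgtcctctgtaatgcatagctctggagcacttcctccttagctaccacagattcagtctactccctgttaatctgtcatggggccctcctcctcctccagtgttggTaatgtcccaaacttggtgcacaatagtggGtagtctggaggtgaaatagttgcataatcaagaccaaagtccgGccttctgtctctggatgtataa
Cyp2a5 (chr7:26835089-26835304, plus strand): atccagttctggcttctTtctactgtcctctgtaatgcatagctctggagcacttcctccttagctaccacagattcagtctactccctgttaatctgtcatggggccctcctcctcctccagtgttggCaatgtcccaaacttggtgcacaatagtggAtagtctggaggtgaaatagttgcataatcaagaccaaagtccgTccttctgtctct
For the Cyp2c cluster, the windows of *Cyp2c40* and *Cyp2c69*, higher in mice labelled MED13-LKO, and of *Cyp2c37* and *Cyp2c50*, lower in them, are given with the letters CAAAGT (on either strand) in capitals, the core of sites bound by the liver factor HNF4A:
Cyp2c40 (chr19:39812815-39813064, minus strand): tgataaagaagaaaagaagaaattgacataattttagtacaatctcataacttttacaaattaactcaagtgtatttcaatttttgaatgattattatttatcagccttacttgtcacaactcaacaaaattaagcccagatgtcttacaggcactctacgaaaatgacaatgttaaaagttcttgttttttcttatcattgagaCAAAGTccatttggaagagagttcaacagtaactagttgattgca
Cyp2c69 (chr19:39886800-39887019, minus strand): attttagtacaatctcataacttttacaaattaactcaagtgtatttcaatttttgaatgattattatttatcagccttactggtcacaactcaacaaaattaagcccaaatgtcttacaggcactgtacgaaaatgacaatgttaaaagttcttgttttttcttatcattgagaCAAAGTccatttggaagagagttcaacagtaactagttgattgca
Cyp2c37 (chr19:39992174-39992423, plus strand): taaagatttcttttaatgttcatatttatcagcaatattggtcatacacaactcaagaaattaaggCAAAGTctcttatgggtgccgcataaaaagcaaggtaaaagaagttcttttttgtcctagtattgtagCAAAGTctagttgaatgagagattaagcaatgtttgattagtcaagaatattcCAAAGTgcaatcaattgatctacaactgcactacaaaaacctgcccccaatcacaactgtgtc
Cyp2c50 (chr19:40089429-40089678, plus strand): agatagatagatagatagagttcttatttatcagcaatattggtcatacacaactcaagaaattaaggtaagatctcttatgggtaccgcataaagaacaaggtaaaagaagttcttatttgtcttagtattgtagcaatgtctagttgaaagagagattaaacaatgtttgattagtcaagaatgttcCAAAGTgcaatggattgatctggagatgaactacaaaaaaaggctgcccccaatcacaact
CAAAGT occurred in all of these windows, whichever way the gene differed. A promoter was found for 44 of the 49 members (*Cyp2u1*, *Cyp2c23*, *Cyp2c54*, *Cyp2g1* and *Cyp2d22* had none), and over the 250 bases before the RefSeq start CAAAGT was present on either strand in 23 of the 44 (52.3%), against 12.6% of all 32851 windows of that length. The longer CAAAGTCCA, which contains CAAAGT, was present in 7 members (*Cyp2c40*, *Cyp2c67*, *Cyp2c68*, *Cyp2c69*, *Cyp2c70*, *Cyp3a11* and *Cyp3a16*) against 0.384% of windows. The TATA box TATAAA was present in 21 members (47.7%) against 12.4% of windows, and GCGTG, the core that AHR binds, in 6 members against 28.2% of windows. TTCNNNGAA, the letters of a STAT site, was found in 0 of the 44 members and in 7.02% of all windows. These shares are not strictly alike, since a member was counted once if any of its windows held the letters, while the background counts single windows. Several members are also close copies, so their windows are not independent.

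The 49 members belong to 15 subfamilies, of which Cyp2c (13 genes), Cyp3a (7) and Cyp2d (6) are the largest here. Together they held 2.57% to 3.16% of the normalized counts of a library. *Cyp2e1*, which oxidizes ethanol and acetaminophen, and *Cyp3a11*, a broad-specificity enzyme for drugs and steroids, held 47.9% to 55.9% of the member sum in every library. Per kilobase of longest coding transcript and averaged over all libraries, *Cyp2e1* was highest at 95896 normalized counts and *Cyp3a11* next at 57234, followed by *Cyp2a5* at 22460, *Cyp2c29* at 18826 and *Cyp2d9* at 13435. The other 5 of the 10 highest members per kilobase were *Cyp2c50*, *Cyp3a25*, *Cyp2f2*, *Cyp2d26* and *Cyp2d10*, between 6938 and 10343. At the filter on low values, *Cyp2d11* and *Cyp2s1* lay just below with means of 4.95 and 8.002, and *Cyp1a1* and *Cyp1b1* just above with means of 10.7 and 14.7. The 10 untested members were *Cyp2b13*, *Cyp2b19*, *Cyp2d11*, *Cyp2j8*, *Cyp2j13*, *Cyp2s1*, *Cyp2t4*, *Cyp3a16*, *Cyp3a44* and *Cyp3a57*, and no library gave any of them more than 16.5 normalized counts.

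Sums of normalized counts ran from 21060000 to 24150000 in the control libraries and from 17310000 to 18740000 in those labelled MED13-LKO. The smallest step between low values placed the reads counted on genes at 18760000 to 21410000 and 16090000 to 24230000 in the same order. Control fructose mouse 1 had the lowest median correlation with the other libraries, 0.951 against 0.955 to 0.959. If the libraries are instead rescaled to equal sums, the median log2 genotype difference of all genes moves from 0.01 to 0.32, and the members move with it, so genotype changes are best read against that median and directions that turn are named where they are given. The markers of hepatocytes were listed at sums of 2339550 to 2969040 in control libraries and 1802580 to 2140680 in those labelled MED13-LKO, with 4 of 5 lower (by equal sums, 1 lower and 1 higher). Sinusoidal endothelial markers summed to 3036 to 3528 and 3471 to 4743, with 3 of 5 higher (5 of 5 by equal sums), and Kupffer cell markers to 3228 to 4576 and 4118 to 5540, with 1 of 5 higher (5 of 5 by equal sums). Stellate cell markers (2 of 5 lower, but 2 higher by equal sums) summed to 4941 to 6099 and 4540 to 5340. Cholangiocyte markers (0 of 3 called, 1 higher by equal sums) summed to 72.5 to 154 and 75.3 to 149, and lymphocyte markers (1 of 1 tested higher) to 171 to 244 and 213 to 319. Exocrine pancreas markers, of which none was tested, summed to at most 11.7. For comparison, 12.1% of all genes were higher and 13.2% lower, or 57.6% and 3.27% by equal sums. The part of cell composition in the differences below was not tested, and in whole liver a smaller number of a cell type cannot be told apart from less RNA per cell.

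Which P450 genes differed between the genotypes was asked first. Averaged over the 3 diets, 27 of the 39 tested members passed an adjusted p of 0.05 by limma, 8 of them higher and 19 lower in mice labelled MED13-LKO. Of all 12366 genes tested, 25.3% were called, 12.1% higher and 13.2% lower. The median log2 difference of the members was -0.25 against 0.01 for all genes. By equal sums 25 members were called, 14 higher (35.9%) and 11 lower (28.2%), against 57.6% of all genes higher and 3.27% lower, with medians of 0.06 for the members and 0.32 for all genes. The members whose called difference changed sign by equal sums were *Cyp2d22*, *Cyp2d26*, *Cyp2j5* and *Cyp2j6*, which then stood at 0.06, 0.03, 0.05 and 0.12 and were not called. In 16 members every mouse labelled MED13-LKO lay outside the range of the 6 control mice, 5 above (*Cyp2a4*, *Cyp2a22*, *Cyp2c40*, *Cyp2c55* and *Cyp2c69*) and 11 below, against 8.85% of all genes (3.92% above and 4.93% below). P-values here rest on the spread between mice within groups, pooled over the 6 groups and moderated over all genes tested. Log2 differences, given ± SE, are of normalized counts plus 1. Values given for single mice are normalized counts, mouse 1 before mouse 2 in each diet.

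**Figure D1:**
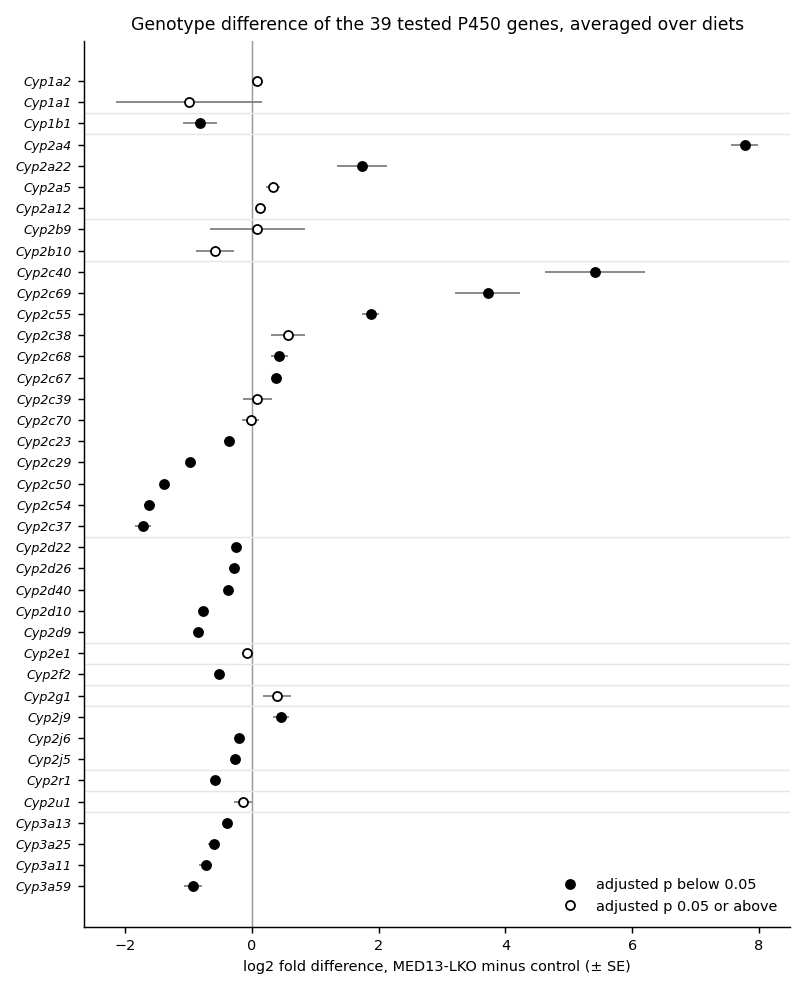
The horizontal axis gives the log2 difference of normalized counts (MED13-LKO minus control, averaged over the 3 diets) with its SE for each of the 39 tested members, grouped by subfamily, with filled points for called members and open points for the rest. *Cyp2a4*, *Cyp2c40* and *Cyp2c69* lie far to the right at 7.78, 5.42 and 3.72, while the called Cyp2d and Cyp3a genes lie between -0.93 and -0.25.

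In the Cyp2a subfamily, 2 of 4 genes were higher in mice labelled MED13-LKO and 2 were not called. *Cyp2a4* (ENSMUSG00000074254, chr7:26307169-26315088 on GRCm38) encodes a testosterone hydroxylase that female mouse liver expresses more than male. Its normalized counts were 39.6 and 26.5 (fasted), 21.03 and 13.4 (sucrose) and 12.1 and 11.2 (fructose) in the control mice. In the mice labelled MED13-LKO they read 2256 and 4393 (fasted), 5958 and 3327 (sucrose) and 6576 and 4895 (fructose). Every one of the latter was above every control value, and the genotype difference was 7.78 ± 0.21, adjusted p = 1.16e-08 by limma, a 219-fold difference. It was called in each diet, at 6.56 fasted, 7.96 with sucrose and 8.81 with fructose.

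*Cyp2a5*, the coumarin hydroxylase and close copy of *Cyp2a4*, was far more abundant. Its normalized counts were 51916 and 50965 (fasted), 35965 and 39329 (sucrose) and 24988 and 39432 (fructose) in the control mice, and 54261 and 55062 (fasted), 36391 and 47963 (sucrose) and 57420.02 and 48858 (fructose) in mice labelled MED13-LKO. These ranges overlapped and the averaged difference was 0.33 ± 0.11, adjusted p = 0.0573, while with fructose it was called at 0.75 ± 0.20, adjusted p = 0.0453 by limma. That call was lost in 9 of the 12 fits that left out 1 mouse, and without control fructose mouse 1 the value was 0.43. The sum of the pair was higher in mice labelled MED13-LKO by 0.46 ± 0.11 (adjusted p = 0.012 by limma). *Cyp2a4* took 0.0285% to 0.0762% of that sum in control mice and 3.99% to 14.1% in mice labelled MED13-LKO. On the log2 scale the total of the pair moved far less than *Cyp2a4* did.

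*Cyp2a12*, a testosterone hydroxylase, and its copy *Cyp2a22* have 96.96% of their coding bases in common. *Cyp2a12* gave 10462 and 11334 (fasted), 9373 and 10259.8 (sucrose) and 8847 and 9563 (fructose) in the control mice, and 12451 and 11175 (fasted), 10963 and 10961 (sucrose) and 9736 and 9974 (fructose) in mice labelled MED13-LKO, with overlap and a difference of 0.13 ± 0.05, adjusted p = 0.09. *Cyp2a22* was much lower in counts, at 109 and 55.4 (fasted), 102 and 103 (sucrose) and 22.02 and 148 (fructose) in the control mice, and 271 and 182 (fasted), 402 and 334 (sucrose) and 269 and 177 (fructose) in mice labelled MED13-LKO. The groups of *Cyp2a22* did not overlap and the difference was 1.74 ± 0.39, adjusted p = 0.00973 by limma, but the sum of the pair was not called (0.15, adjusted p = 0.0535 by limma).

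The Cyp2c subfamily, whose enzymes hydroxylate and epoxidize arachidonic acid and other fatty acids as well as drugs, split in both directions, with 5 of 13 tested genes higher, 5 lower and 3 not called. *Cyp2c40* was the most changed after *Cyp2a4* and is another gene that female liver expresses more. Its normalized counts were 393 and 31.6 (fasted), 15.04 and 315 (sucrose) and 7.92 and 27.6 (fructose) in the control mice, and 1755 and 2188 (fasted), 3923 and 1805 (sucrose) and 2995 and 1234 (fructose) in mice labelled MED13-LKO. The control values were uneven, with fasted mouse 1 and sucrose mouse 2 far above the other 4, yet all stayed below the lowest value of the other genotype. The averaged difference was 5.42 ± 0.79, adjusted p = 0.000979 by limma. Within diets it was called with fructose alone (6.91 ± 1.37, adjusted p = 0.0152), and stood at 4.11 ± 1.37, adjusted p = 0.0914 fasted and 5.23 ± 1.37, adjusted p = 0.0534 with sucrose. The fructose call was lost without control fructose mouse 1 or either fructose mouse labelled MED13-LKO.

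*Cyp2c69*, adjacent to *Cyp2c40* in the cluster and also female-predominant, ran with it in the same control mice. Its normalized counts were 207 and 49.4 (fasted), 26.05 and 134 (sucrose) and 20.9 and 46.1 (fructose) in the control mice, and 637 and 767 (fasted), 1665 and 513 (sucrose) and 1115 and 446 (fructose) in mice labelled MED13-LKO. No value overlapped, and the difference was 3.72 ± 0.51, adjusted p = 0.000701 by limma.

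*Cyp2c67* gave 4152 and 4505 (fasted), 3805 and 5654 (sucrose) and 5013 and 4335 (fructose) in the control mice, and 5947 and 6116 (fasted), 6421 and 6117 (sucrose) and 5607 and 5514 (fructose) in mice labelled MED13-LKO. *Cyp2c68* gave 6442 and 4913 (fasted), 4548 and 6749.9 (sucrose) and 3566 and 5456 (fructose) in the control mice, and 6657 and 7659 (fasted), 7656 and 6677 (sucrose) and 7255 and 5987 (fructose) in mice labelled MED13-LKO. Both had overlapping groups and small differences, 0.39 ± 0.09, adjusted p = 0.00973 for *Cyp2c67* and 0.43 ± 0.13, adjusted p = 0.0407 for *Cyp2c68* by limma, and the call of *Cyp2c68* was lost when some single mice were left out. The sum of *Cyp2c40*, *Cyp2c67*, *Cyp2c68* and *Cyp2c69* was higher by 0.68 ± 0.12 (adjusted p = 0.00269 by limma). Of this sum *Cyp2c40* held 0.092% to 3.51% in control mice and 9.36% to 19.9% in mice labelled MED13-LKO, and *Cyp2c69* held 0.243% to 1.85% and 3.38% to 8.47%. The share of 31-base subsequences found elsewhere is 72.6% for *Cyp2c40* and 64.9% for *Cyp2c69*.

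*Cyp2c55* shares only 3.41% of its subsequences with other genes, so its values depend little on division among copies. They were 118 and 73.5 (fasted), 90.1 and 82.6 (sucrose) and 61.6 and 51.7 (fructose) in the control mice, and 192 and 244 (fasted), 324 and 357 (sucrose) and 286 and 343 (fructose) in mice labelled MED13-LKO. The groups did not overlap and the difference of 1.88 ± 0.13, adjusted p = 1.12e-05 by limma, 3.67-fold, was called in each diet, at 1.21 fasted, 1.97 with sucrose and 2.45 with fructose.

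The lower Cyp2c genes were abundant ones. *Cyp2c37* gave 12382 and 9889 (fasted), 8529 and 12550.3 (sucrose) and 8132 and 11205 (fructose) in the control mice, and 3123 and 3249 (fasted), 4007 and 3814 (sucrose) and 2935 and 2095 (fructose) in mice labelled MED13-LKO. *Cyp2c50* gave 31304 and 27709 (fasted), 23793 and 29442 (sucrose) and 24412 and 25964 (fructose) in the control mice, and 10673 and 10209 (fasted), 11115 and 11892 (sucrose) and 9659 and 8725 (fructose) in mice labelled MED13-LKO. *Cyp2c54* gave 13674 and 12889 (fasted), 10257 and 12687 (sucrose) and 8789 and 10768 (fructose) in the control mice, and 4336 and 3835 (fasted), 3577 and 4606 (sucrose) and 3369.6 and 2846 (fructose) in mice labelled MED13-LKO. In *Cyp2c37*, *Cyp2c50* and *Cyp2c54* alike the highest value of a mouse labelled MED13-LKO was under the lowest control value. The differences were -1.71 ± 0.13, adjusted p = 1.34e-05 for *Cyp2c37*, -1.38 ± 0.06, adjusted p = 7.62e-07 for *Cyp2c50* and -1.61 ± 0.09, adjusted p = 2.12e-06 for *Cyp2c54* by limma, or 3.28-, 2.61- and 3.06-fold lower. These copies are 95.11% to 96.13% identical in coding bases, and their sum fell by 1.50 (adjusted p = 1.62e-06 by limma), so the lower level does not rest on how reads were divided among them.

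*Cyp2c29*, an arachidonic acid epoxygenase with 10.5% shared subsequences, gave 47507 and 38636 (fasted), 50366 and 51791 (sucrose) and 37360.3 and 41387 (fructose) in the control mice, and 20627 and 21499 (fasted), 23086 and 27895 (sucrose) and 20434 and 22208 (fructose) in mice labelled MED13-LKO. It was lower in every mouse of that label than in any control mouse, with a difference of -0.97 ± 0.07, adjusted p = 1.32e-05 by limma (1.96-fold). *Cyp2c37*, *Cyp2c50*, *Cyp2c54* and *Cyp2c29* were called lower in each of the 3 diets, with differences between -1.94 and -0.88.

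*Cyp2c23*, a gene outside the cluster, ranged over 4856 to 6417 in control mice and 3760.2 to 5346 in mice labelled MED13-LKO (-0.37 ± 0.08, adjusted p = 0.00679 by limma). Its call was lost by equal sums. *Cyp2c38*, *Cyp2c39* and *Cyp2c70* were not called, at 0.58, 0.09 and -0.02, nor was the sum of the copies *Cyp2c38* and *Cyp2c39* (0.55, adjusted p = 0.162 by limma), and *Cyp2c70*, which makes the muricholic acids of mouse bile, ranged over 4450.2 to 10829 in control mice and 4712 to 7255 in mice labelled MED13-LKO.

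On chromosome 19 the cluster of 12 Cyp2c genes spans 1.18 Mb, chr19:39007019-40187333 on GRCm38. In order, *Cyp2c55* was higher, *Cyp2c29* lower, *Cyp2c38* and *Cyp2c39* not called, *Cyp2c67*, *Cyp2c68*, *Cyp2c40* and *Cyp2c69* higher, *Cyp2c37*, *Cyp2c54* and *Cyp2c50* lower and *Cyp2c70* not called. The 4 close copies that were higher lay side by side, as did the 3 that were lower, with the change of direction between *Cyp2c69* and *Cyp2c37*.

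**Figure D2:**
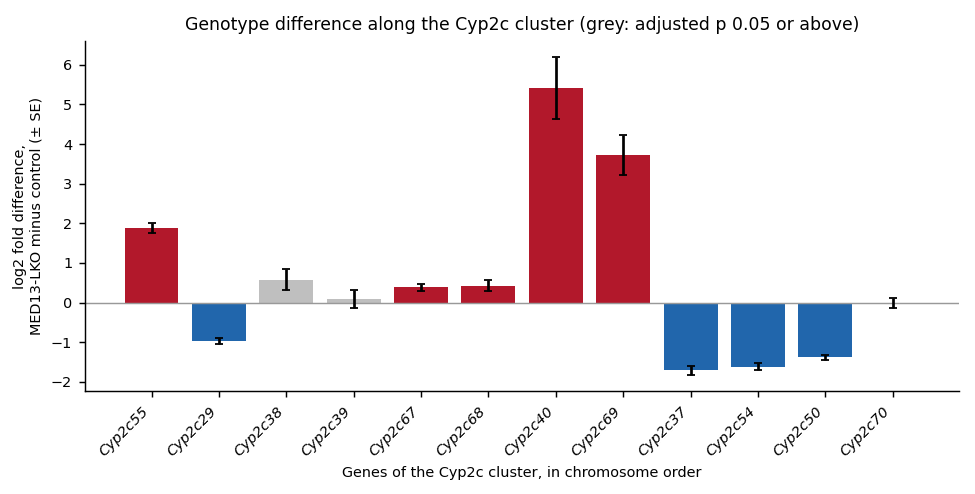
Bars give the log2 difference (MED13-LKO minus control, averaged over diets) with its SE for the 12 genes of the Cyp2c cluster in chromosome order, red for called higher, blue for called lower and grey for not called. *Cyp2c40* at 5.42 and *Cyp2c69* at 3.72 stand beside *Cyp2c37*, *Cyp2c54* and *Cyp2c50* at -1.71, -1.61 and -1.38.

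**Figure D3:**
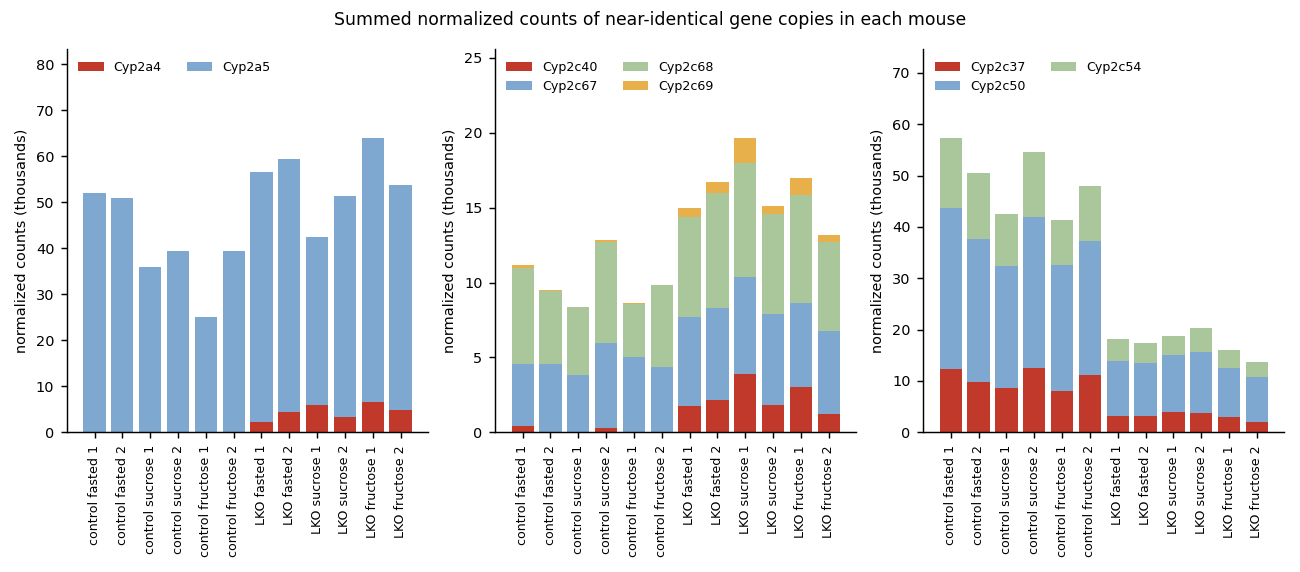
Stacked bars give the normalized counts (vertical axis, scaled as its label states) of near-identical copies in each of the 12 mice, for *Cyp2a4* with *Cyp2a5*, for *Cyp2c40* with *Cyp2c67*, *Cyp2c68* and *Cyp2c69*, and for *Cyp2c37* with *Cyp2c50* and *Cyp2c54*. *Cyp2a4* is visible only in the mice labelled MED13-LKO, where it is at most 14.1% of its pair, while the whole bars of the *Cyp2c37* group are lower in those mice.

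All 5 tested Cyp2d genes and all 4 tested Cyp3a genes were called lower in mice labelled MED13-LKO, with median differences of -0.37 and -0.66, and *Cyp2d22* and *Cyp2d26* turned sign by equal sums as given above. *Cyp2d9*, a testosterone hydroxylase that male liver expresses more, gave 27893 and 35157 (fasted), 27547 and 27326 (sucrose) and 32821 and 26047 (fructose) in the control mice, and 19018 and 18562 (fasted), 14723 and 19057 (sucrose) and 12727 and 15122 (fructose) in mice labelled MED13-LKO. Its groups did not overlap, and the averaged difference was -0.84 ± 0.09, adjusted p = 0.000176 by limma (1.79-fold lower). It was called in each diet, but when fasted and with sucrose not by equal sums or without some single mice, and with fructose not where the fit held those groups alone. *Cyp2d10* gave 14257 and 15604 (fasted), 13782 and 15304 (sucrose) and 12956 and 14598 (fructose) in the control mice, and 8663 and 9226 (fasted), 8303 and 8781 (sucrose) and 8309.6 and 7433 (fructose) in mice labelled MED13-LKO. It was likewise lower without overlap and in each diet (-0.77 ± 0.06, adjusted p = 1.3e-05 by limma). The third copy of this group, *Cyp2d11*, was near 0, with 6.79 and 3.61 (fasted), 3.01 and 2.07 (sucrose) and 6.61 and 4.497 (fructose) in the control mice, and 2.07 and 3.72 (fasted), 2.16 and 5.07 (sucrose) and 6.895 and 12.9 (fructose) in mice labelled MED13-LKO, and was not tested. The sum of *Cyp2d9*, *Cyp2d10* and *Cyp2d11* fell by 0.82 (adjusted p = 3.28e-05 by limma).

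*Cyp2d26* gave 15151 and 16339 (fasted), 15918 and 16992 (sucrose) and 13646 and 18544 (fructose) in the control mice, and 13974 and 14115 (fasted), 13721 and 13480.3 (sucrose) and 13174 and 10783 (fructose) in mice labelled MED13-LKO, a difference of -0.28 ± 0.08, adjusted p = 0.0262 by limma with overlapping groups that became 0.03 by equal sums. *Cyp2d22* gave 4732 and 5059 (fasted), 4378 and 3869.96 (sucrose) and 3835 and 4346 (fructose) in the control mice, and 4625 and 3905 (fasted), 3276 and 3723 (sucrose) and 3445 and 3116 (fructose) in mice labelled MED13-LKO, a difference of -0.25 ± 0.07, adjusted p = 0.0194 by limma that became 0.06 by equal sums. Both calls were lost by equal sums and when some single mice were left out, and both were kept by equal 75th percentiles. *Cyp2d40* ranged over 533 to 744 in control mice and 458 to 523 in mice labelled MED13-LKO (-0.37 ± 0.06, adjusted p = 0.00226 by limma), a call that was also lost by equal sums.

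*Cyp3a11*, the mouse counterpart of the main human drug-metabolizing CYP3A enzyme and a target of PXR, gave 206047 and 212931 (fasted), 124277 and 163477 (sucrose) and 137879 and 162195 (fructose) in the control mice. In mice labelled MED13-LKO it gave 79253 and 107963 (fasted), 114501 and 118818 (sucrose) and 95417 and 87119.7 (fructose). All of the latter were below all control values, but the gap was wide when fasted and narrow with sucrose. The averaged difference was -0.73 ± 0.10, adjusted p = 0.000698 by limma (1.66-fold lower). Within diets it was -1.18 ± 0.17, adjusted p = 0.00324 fasted and -0.71 ± 0.17, adjusted p = 0.0348 with fructose by limma, and -0.29 ± 0.17, adjusted p = 0.386 with sucrose, which was not called. The fructose call was lost by equal sums (-0.39) and when some single mice were left out, while the fasted call was kept under every alternative run. The genotype by sucrose interaction was 0.89 ± 0.24, adjusted p = 0.349, so a difference between these diets was not shown. Its untested copy *Cyp3a44* had 4.53 and 4.82 (fasted), 1.001 and 4.13 (sucrose) and 0 and 2.25 (fructose) normalized counts in the control mice, and 8.26 and 6.501 (fasted), 1.44 and 2.53 (sucrose) and 4.93 and 6.44 (fructose) in mice labelled MED13-LKO, at most 0.0104% of the sum of the pair, which fell by 0.73 (adjusted p = 0.000692 by limma).

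*Cyp3a25* gave 32309 and 30759.99 (fasted), 20113 and 23798 (sucrose) and 17049.5 and 23666 (fructose) in the control mice, and 17807 and 19308 (fasted), 15395 and 16086 (sucrose) and 15152 and 12415 (fructose) in mice labelled MED13-LKO (-0.60 ± 0.09, adjusted p = 0.00108 by limma). *Cyp3a59*, 97.49% identical to it in coding bases, gave 2783 and 2611 (fasted), 1529.8 and 1648 (sucrose) and 1178 and 1947 (fructose) in the control mice, and 712 and 1079 (fasted), 1692 and 1173 (sucrose) and 826 and 704 (fructose) in mice labelled MED13-LKO (-0.93 ± 0.15, adjusted p = 0.00165 by limma). For *Cyp3a59* the mice were far apart when fasted and mixed with sucrose, and the sum of both copies fell by 0.61 on the log2 scale (adjusted p = 0.001 by limma). *Cyp3a13* gave 6268 and 6879 (fasted), 4394 and 4827 (sucrose) and 4824 and 5745 (fructose) in the control mice, and 4913 and 4883 (fasted), 3662 and 4061 (sucrose) and 4019.5 and 3463 (fructose) in mice labelled MED13-LKO (-0.39 ± 0.06, adjusted p = 0.00172 by limma), and its call was lost by equal sums.

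*Cyp2e1*, the most abundant member, was not called. It gave 179000.2 and 213756 (fasted), 141979 and 190400.3 (sucrose) and 175657 and 179957 (fructose) in the control mice, and 202701 and 202304 (fasted), 154239.8 and 166371 (sucrose) and 158440.03 and 144527 (fructose) in mice labelled MED13-LKO, with fully overlapping groups and a difference of -0.07 ± 0.09, adjusted p = 0.589. *Cyp2f2*, the naphthalene-oxidizing enzyme that liver expresses around the portal vein, gave 20975 and 22356 (fasted), 19428 and 20401 (sucrose) and 21548 and 21005 (fructose) in the control mice, and 18046 and 15775 (fasted), 14846 and 13616 (sucrose) and 12787 and 13079 (fructose) in mice labelled MED13-LKO. It was lower without overlap, with an average difference of -0.52 ± 0.05, adjusted p = 7.61e-05 by limma. It was called in each diet, but when fasted and with sucrose not by equal sums or without some single mice. The fasted call of *Cyp2f2* was also lost under a further alternative.

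Among the remaining subfamilies, *Cyp2r1*, the vitamin D 25-hydroxylase, ranged over 269 to 401 in control mice and 192 to 249 in mice labelled MED13-LKO, without overlap (-0.57 ± 0.08, adjusted p = 0.000879 by limma). The fatty acid epoxygenases *Cyp2j5* and *Cyp2j6* were lower, at -0.26 ± 0.05 and -0.19 ± 0.06 (adjusted p = 0.0048 and 0.0452 by limma), both turning sign by equal sums. *Cyp2j5* ranged over 12723 to 15051 in control mice and 9773 to 12685 in mice labelled MED13-LKO, and *Cyp2j6* over 1281 to 1761 and 1174 to 1532. *Cyp2j9* went the other way, with 244 and 216 (fasted), 180.4 and 203 (sucrose) and 161 and 234 (fructose) in the control mice, and 371 and 405 (fasted), 190.00 and 239.97 (sucrose) and 319 and 225 (fructose) in mice labelled MED13-LKO (0.46 ± 0.13, adjusted p = 0.0237 by limma). The groups of *Cyp2j9* overlapped, and its call was lost when some single mice were left out.

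Of the AHR-inducible genes of family 1, *Cyp1b1* was called and the Cyp1a genes were not. *Cyp1a2*, which metabolizes caffeine and is the abundant member of this family in liver, ranged over 7929.7 to 9761 in control mice and 8035 to 10067 in mice so labelled, without a call (0.08 ± 0.06, adjusted p = 0.386). *Cyp1a1* ranged over 0 to 24.1 in control mice and 0 to 33.04 under the other label, also without a call (-0.99 ± 1.15, adjusted p = 0.574). *Cyp1b1* gave 17.03 and 20.5 (fasted), 17.99 and 19.6 (sucrose) and 16.5 and 15.8 (fructose) in the control mice, and 20.6 and 19.5 (fasted), 12.2 and 7.61 (sucrose) and 2.95 and 6.44 (fructose) in mice labelled MED13-LKO. It was called at -0.82 ± 0.26, adjusted p = 0.045 by limma, but the fasted mice did not share the direction (0.10), and the call was lost by equal sums and with several single mice left out.

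**Figure D4:**
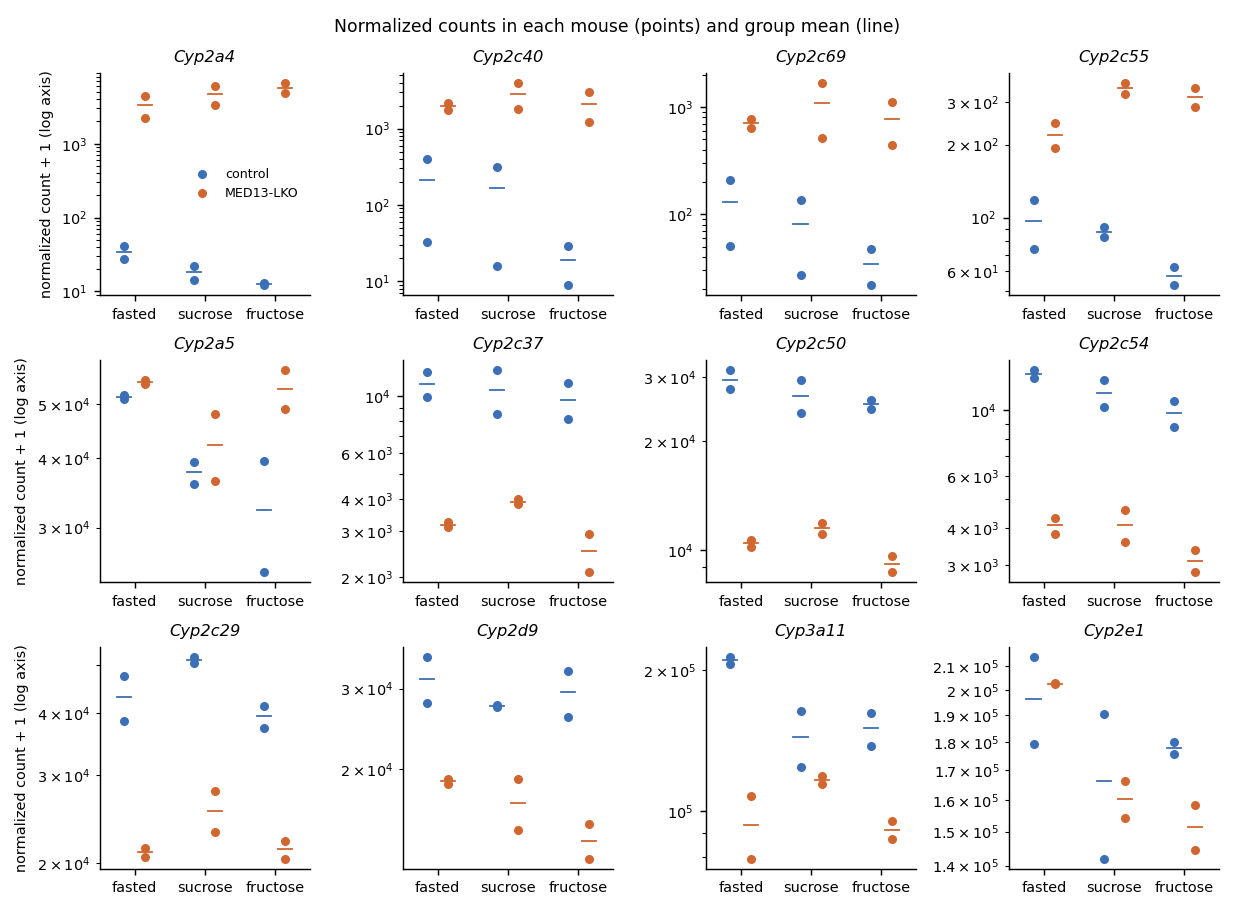
Points give the normalized count plus 1 of each mouse on a log axis and lines the group mean, for 12 members by diet and genotype. The points of *Cyp2a4*, *Cyp2c40*, *Cyp2c69* and *Cyp2c55* labelled MED13-LKO lie above all control points, those of *Cyp2c37*, *Cyp2c50*, *Cyp2c54*, *Cyp2c29*, *Cyp2d9* and *Cyp3a11* lie below, and those of *Cyp2e1* mix.

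By diet, 14 of 39 members were called when fasted (2 higher and 12 lower, background 8.98%, or 4.12% and 4.86% by direction), 12 with sucrose (3 higher and 9 lower, background 6.03%, or 2.7% and 3.33%) and 18 with fructose (6 higher and 12 lower, background 7.69%, or 3.74% and 3.95%). By equal sums the members gave 10 higher and 7 lower when fasted (all genes 31.7% and 1.88%), 8 and 5 with sucrose (16.8% and 1.37%) and 12 and 8 with fructose (26.2% and 1.84%). Without control fasted mouse 2 the fasted count was 9, without sucrose mouse 1 labelled MED13-LKO the sucrose count was 6, and without either fructose mouse labelled MED13-LKO the fructose count was 10. The 9 members called in every diet were *Cyp2a4*, *Cyp2c29*, *Cyp2c37*, *Cyp2c50*, *Cyp2c54*, *Cyp2c55*, *Cyp2d9*, *Cyp2d10* and *Cyp2f2*, of which 5 (*Cyp2a4*, *Cyp2c29*, *Cyp2c50*, *Cyp2c54* and *Cyp2d10*) kept the call in every diet under every alternative run. *Cyp2c55* lost its fasted call when either mouse 2 of that diet was left out, *Cyp2c37* lost its sucrose call without sucrose mouse 1 labelled MED13-LKO, and *Cyp2d9* and *Cyp2f2* lost theirs in both of these diets by equal sums and without some single mice. The fasted calls of *Cyp2c55* and *Cyp2f2* were also lost under an alternative other than equal sums or leaving out a mouse. *Cyp2a5* and *Cyp2g1* were called with fructose (0.75 and 1.81) but not on average, and both calls were lost when some single mice were left out. Of the 27 members called on average, 26 had the same sign in each diet, *Cyp1b1* being the exception. Of the 27, 17 kept their call over leaving out each mouse in turn, both rescalings, both pseudocounts, no filter and the block. They were *Cyp2a4*, *Cyp2a22*, *Cyp2c29*, *Cyp2c37*, *Cyp2c40*, *Cyp2c50*, *Cyp2c54*, *Cyp2c55*, *Cyp2c67*, *Cyp2c69*, *Cyp2d9*, *Cyp2d10*, *Cyp2f2*, *Cyp2r1*, *Cyp3a11*, *Cyp3a25* and *Cyp3a59*. The averaged contrast already uses all groups, so a fit of compared groups alone was not run for it.

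Genes that the P450 enzymes depend on were counted beside them. Of all genes, 12.1% were called higher and 13.2% lower, or 57.6% and 3.27% by equal sums. The electron partners were lower in 4 of 5 (*Cyb5a* -0.73, *Pgrmc1* -0.48, *Cyb5b* -0.32 and *Por*, the oxidoreductase itself, -0.27), with a median of -0.32, but by equal sums *Por* and *Cyb5b* stood at 0.05 and 0.00 and 2 of 5 were lower and 1 higher. Among the heme synthesis genes, *Alas1*, the rate-limiting step, fell by 0.81 on average, while *Fech* and *Uros* rose by 0.30 and 0.21. By equal sums 5 of 8 genes of this list were higher, near the share of all genes, and *Alas1* was not called. The *Alas1* values overlapped with sucrose (control 9395 and 14089, MED13-LKO label 13729 and 7916). They lay apart when fasted (control 9076 and 6872, MED13-LKO label 5088 and 6213) and more so with fructose (control 22166 and 12865, MED13-LKO label 6241 and 3836). Of 10 tested receptors and liver factors, *Nr1i3*, which encodes CAR, fell by 0.90, *Rxra* by 0.33 and *Cebpa* by 0.21, *Cebpa* turning to 0.10 by equal sums, and *Arnt* rose by 0.21. *Nr1i2* (PXR) at -0.28 ± 0.11, adjusted p = 0.0855, *Ahr* at -0.34 ± 0.16, adjusted p = 0.144 and *Hnf4a* at -0.14 ± 0.06, adjusted p = 0.094 were not called by limma. Among 8 targets of CAR and PXR outside the families 3 were higher (*Akr1b7* 1.84, *Abcb1a* 1.59 and *Gadd45b* 1.34) and 3 lower (*Abcc3* -0.86, *Slco1a4* -0.81 and *Gsta1* -0.77), against 4 higher and 2 lower by equal sums. Among 3 tested AHR targets 1 was lower, and 0 by equal sums.

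Sex-biased members were set beside sex-biased genes of other families. Of the female-predominant members, 5 were tested and 3 were higher in mice labelled MED13-LKO (*Cyp2a4*, *Cyp2c40* and *Cyp2c69*), and the whole list, which also holds *Cyp3a41a* from outside the symbol rule, summed to 154 to 1377 in control mice and 5103 to 12280 in the others. The female-predominant *Cyp2b13*, *Cyp3a16* and *Cyp3a44* were near 0 in all mice, and *Cyp2b9* and *Cyp2b10* were not called. Of the male-predominant members *Cyp2d9* was lower and *Cyp2u1* was not called (-0.14). Outside the families, 4 of 7 tested female-predominant genes were higher and 0 lower (*A1bg* 3.81, *Ntrk2* 3.44, *Cux2* 1.31 and *Acot3* 0.97; median 0.97), and 9 of 12 male-predominant genes were lower and 0 higher (for example *Hsd3b5* -5.24 and *Cyp7b1* -1.53; median -1.46). By equal sums these counts were 5 higher and 8 lower. Of all genes, 12.1% were higher and 13.2% lower, or 57.6% and 3.27% by equal sums. *A1bg* (0 to 2.2 normalized counts) and *Ntrk2* (0 to 11.8) were low in control mice. Both passed the filter only through the mice labelled MED13-LKO (7.43 to 43.1 and 15.6 to 219), so their calls add no separate support. The Y-linked genes *Ddx3y*, *Kdm5d*, *Uty* and *Eif2s3y* were present in every library, with sums of 3031 to 3547 in control mice and 3253 to 3692 in the others. Of 8 genes of the growth hormone axis 3 were lower (*Cish* -1.03, *Igf1* -0.65 and *Ghr* -0.54), with 3 lower and 3 higher by equal sums. For *Cish* the averaged value came mainly from fructose (control 910 and 584, MED13-LKO label 129 and 66.1). Its fasted values were not lower under that label (control 103 and 129, MED13-LKO label 132 and 139). With sucrose the *Cish* values overlapped (control 980 and 670, MED13-LKO label 612 and 676). Genes expressed around the central vein, as *Cyp2e1* and *Cyp1a2* are, were lower in 6 of 8 (median -0.57; 6 lower and 1 higher by equal sums), and periportal genes in 3 of 7 (median -0.23; 1 lower and 1 higher by equal sums). The part of any of these in the P450 differences was not tested.

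The effect of refeeding was compared within and over the genotypes. Averaged over both genotypes, 7 of 39 members were called for sucrose against fasted (2 higher and 5 lower, background 16.8%, or 8.31% and 8.53% by direction) and 12 for fructose against fasted (1 higher and 11 lower, background 16.2%, or 7.74% and 8.5%). The sucrose share was close to that of all genes. The median member difference was -0.12 for sucrose and -0.27 for fructose, against 0.00 and -0.01 over all genes. By equal sums, which moves the fructose median of all genes to 0.11, sucrose gave 4 higher and 1 lower (all genes 13.8% and 4.82%) and fructose 2 higher and 3 lower (14.7% and 4.09%). The 5 members called for both sugars were *Cyp2d22*, *Cyp2g1*, *Cyp2u1*, *Cyp3a13* and *Cyp3a25*. Both comparisons use the same fasted mice. The sucrose count was 4 without control fasted mouse 1, control sucrose mouse 1, fasted mouse 1 or 2 labelled MED13-LKO, or sucrose mouse 2 so labelled, and 3 without control fasted mouse 2 or sucrose mouse 1 labelled MED13-LKO. The fructose count was 7 without control fasted mouse 1 or fructose mouse 1 labelled MED13-LKO, 6 without control fructose mouse 1, 5 without fasted mouse 1 labelled MED13-LKO, and 4 without control fasted mouse 2 or fructose mouse 2 labelled MED13-LKO.

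*Cyp2u1*, a fatty acid hydroxylase, rose with both sugars. Its normalized counts were 62.4 and 45.8 (fasted), 98.97 and 80.4 (sucrose) and 82.4 and 84.4 (fructose) in the control mice, and 48.5 and 32.5 (fasted), 96.1 and 87.9 (sucrose) and 74.8 and 86.9 (fructose) in mice labelled MED13-LKO. All fed mice were above all fasted mice, and the difference was 0.96 ± 0.18, adjusted p = 0.00555 for sucrose and 0.82 ± 0.18, adjusted p = 0.0129 for fructose by limma.

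*Cyp2b9* and *Cyp2b10* were each called for a different sugar, and of these *Cyp2b10* is known to respond to CAR activators such as phenobarbital. *Cyp2b9* gave 7.93 and 6.03 (fasted), 12.02 and 21.7 (sucrose) and 1.101 and 77.6 (fructose) in the control mice, and 3.099 and 0.93 (fasted), 485 and 576 (sucrose) and 0.98 and 0 (fructose) in mice labelled MED13-LKO. Only the sucrose mice labelled MED13-LKO were above 100 normalized counts. The averaged sucrose difference was 4.34 ± 0.92, adjusted p = 0.0107 by limma, and within mice labelled MED13-LKO it was 7.56 ± 1.30, adjusted p = 0.00974 by limma, against 1.12 ± 1.30, adjusted p = 0.642 in control mice. The interaction was 6.44 ± 1.83, adjusted p = 0.367 by limma over all groups, so the difference between genotypes was not called, but a fit of the compared groups alone called it (adjusted p = 0.0238 by limma), as did the fits without control fructose mouse 1 or 2 (adjusted p = 0.0284 and 0.0344 by limma). Its fasted values near 0 make the size of these differences depend on the pseudocount. *Cyp2b10* gave 717 and 878 (fasted), 211 and 215 (sucrose) and 109.7 and 480.2 (fructose) in the control mice, and 437 and 360.4 (fasted), 229 and 359.9 (sucrose) and 109.9 and 92.1 (fructose) in mice labelled MED13-LKO. It fell with fructose (-1.88 ± 0.37, adjusted p = 0.00834 by limma), and the value for sucrose was -1.18 ± 0.37, adjusted p = 0.0524. Control fructose mouse 2, at 480.2 for *Cyp2b10* and 77.6 for *Cyp2b9*, stood above control fructose mouse 1 in both genes.

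*Cyp2g1*, best known from the olfactory mucosa, was low throughout. Its normalized counts were 66.8 and 53.02 (fasted), 24.03 and 14.5 (sucrose) and 7.71 and 8.997 (fructose) in the control mice, and 35.1 and 23.2 (fasted), 20.1 and 32.1 (sucrose) and 33.5 and 30.1 (fructose) in mice labelled MED13-LKO. In control mice every fed value was below both fasted values, while in the other libraries fed and fasted values overlapped. The averaged differences were -0.89 ± 0.27, adjusted p = 0.0492 for sucrose and -1.28 ± 0.27, adjusted p = 0.0122 for fructose by limma. The fructose difference in control mice was -2.70 ± 0.38, adjusted p = 0.00529 by limma and that in mice labelled MED13-LKO 0.15, with an interaction of 2.84 ± 0.54, adjusted p = 0.195 that was not called.

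*Cyp3a13* and *Cyp3a25*, whose values in each mouse are given above, fell with both sugars: *Cyp3a13* by 0.43 and 0.36, and *Cyp3a25* by 0.38 and 0.54 on the log2 scale, sucrose first. *Cyp2d22* fell by 0.27 and 0.32, and *Cyp2j9* fell with sucrose by 0.56. The calls of *Cyp2d22* and *Cyp2j9* were lost by equal sums and without some single mice. Fructose alone was called for lower *Cyp1b1* (-1.08), *Cyp2a12* (-0.25), *Cyp2c54* (-0.42), *Cyp2f2* (-0.20), *Cyp2j5* (-0.21) and *Cyp2j6* (-0.30), and each of these calls was lost by equal sums and without some single mice. The feeding calls kept under every alternative run were *Cyp2b9*, *Cyp2u1* and *Cyp3a13* for sucrose and *Cyp2b10*, *Cyp2g1* and *Cyp3a25* for fructose. None of these small differences was shown to be particular to fructose, since fructose against sucrose gave 0 called members by limma (background 0.0404%, 9 members under an unadjusted p of 0.05, all lower with fructose). Without control fructose mouse 1 *Cyp2b9* was called there (-3.18), and without control fructose mouse 2 *Cyp2b9* (-5.79) and *Cyp2b10* (-1.23) were.

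**Figure D5:**
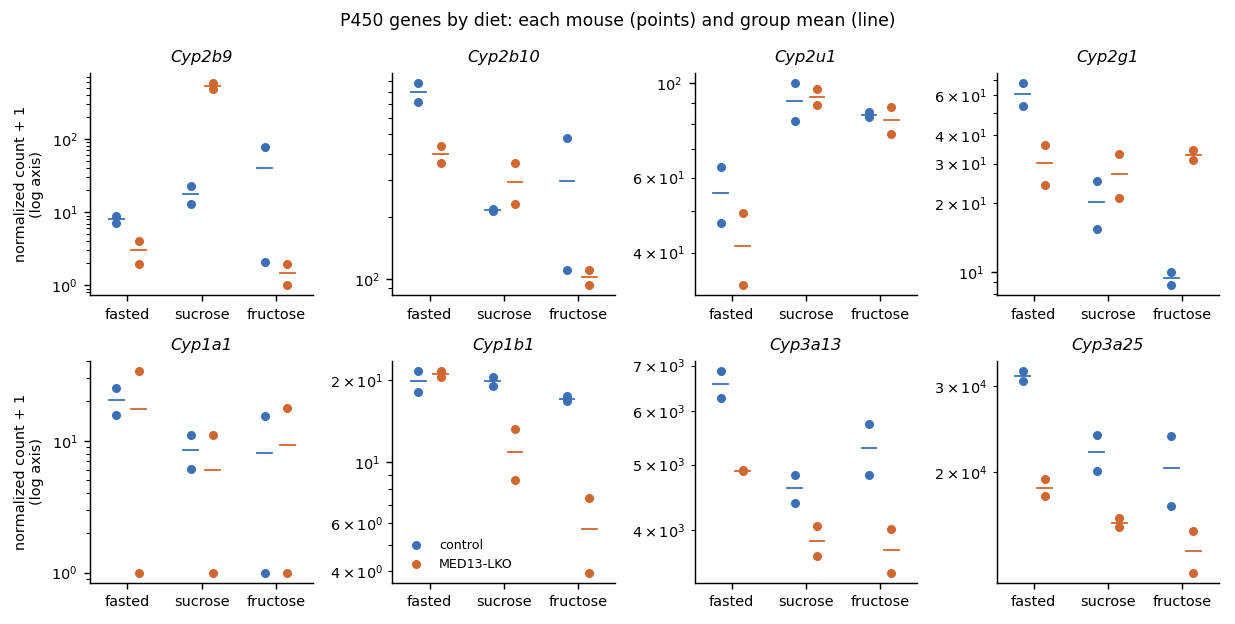
Points give the normalized count plus 1 of each mouse on a log axis and lines the group mean, for 8 members by diet and genotype. *Cyp2b9* is high only in the sucrose mice labelled MED13-LKO (485 and 576), *Cyp2u1* is higher in all fed mice, and *Cyp2g1* falls from 66.8 and 53.0 to under 10 between fasted and fructose-fed control mice.

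Within control mice 2 members were called for sucrose (*Cyp2g1* and *Cyp3a13*, both lower, background 8.57%) and 2 for fructose (*Cyp2g1* and *Cyp3a25*, both lower, background 5.6%). Within mice labelled MED13-LKO 3 were called for sucrose (*Cyp2b9* and *Cyp2u1* higher, *Cyp2j9* lower, background 5.71%) and 3 for fructose (*Cyp2u1* higher, *Cyp1b1* and *Cyp2f2* lower, background 6.53%). These shares were near or under those of all genes, and leaving out single mice changed each of these counts, to between 0 and 5 for sucrose and 1 and 9 for fructose in control mice, and between 0 and 3 and 0 and 8 in the others. In control mice the sucrose count was 0 without any one control fasted or control sucrose mouse and 5 without either control fructose mouse, and the fructose count was 1 without either control fasted mouse or either sucrose mouse labelled MED13-LKO and 9 without control fructose mouse 2. In mice labelled MED13-LKO the sucrose count was 0 without fasted mouse 2 or either sucrose mouse of that label, and the fructose count was 0 without any fasted or fructose mouse of that label and 8 without either control fructose mouse. Whether the genotypes responded differently was tested by the interaction, which gave 0 called members for sucrose by limma (background 0.146%, 6 members under an unadjusted p of 0.05) and 0 for fructose (background 0.0243%, 7 members). *Cyp2a4* with fructose, at 2.25 ± 0.52, adjusted p = 0.254, *Cyp3a59* with sucrose, at 1.45 ± 0.36, adjusted p = 0.309, and *Cyp2c70* with fructose, at -1.16 ± 0.32, adjusted p = 0.324, were among the larger interaction values. The *Cyp2c70* value was called without control fructose mouse 2 (-1.52, adjusted p = 0.0487 by limma).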

How the data were processed

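Liver RNA-seq libraries of 12 mice, 2 in each of 6 groups named by the sample titles, were used. Per the labels, the authors trimmed reads with Trim Galore 0.6.5, estimated transcript counts with kallisto 0.46.0 on mm10, normalized with DESeq2 1.24.0 and deposited the signal values as normalized counts per Ensembl gene. Kallisto estimates carry a factor for each gene, so whole reads could not be recovered (of values under 20, 51.9% to 58.9% lay within 0.05 of a whole multiple of the library's step, against 87.3% to 99.0% in 2652 genes with a single transcript) and no count test was run. The log2(normalized count + 1) of each deposited value was fitted in limma 3.58.1 (R 4.3.3), with 6 groups, all 12 libraries, a mean-dependent empirical Bayes prior and Benjamini-Hochberg adjustment over the 12366 genes whose mean reached 10. The fit was tested on simulated data. Genes with an adjusted p under 0.05 are called.

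Symbols, positions and shared 31-base subsequences came from GENCODE M21 (GRCm38), where 16212 identifiers matched, and upstream sequences from RefSeq (GRCm38.p6). Python 3.11.15, pandas 2.3.3, NumPy 2.4.6 and matplotlib 3.10.9 were used. The members, the lists (partners, heme synthesis, receptors, their targets, sex-biased and zonated genes, the growth hormone axis and cell type markers) and the tests were chosen with earlier results of these data known. Values are given in every mouse for the 10 members with the largest called genotype difference in each direction, the 5 for each sugar, the 10 most abundant per kilobase and their close copies, and other members are given by ranges or log2 differences. Replicate numbers in the titles were not treated as pairs, and the deposited columns number the fed mice otherwise than the titles do. Over 15 pairs of groups the correlations of deviations ran from -0.142 to 0.0782. With 2 mice per group such values cannot exclude pairing.

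Alternatives were pseudocounts of 0.1 and 10, no filter, rescaling to equal 75th percentiles or equal sums, the replicate number as a block, only the compared groups, leaving out each mouse, and other thresholds of shared subsequences. The depth limits the members near the filter, such as *Cyp1a1* and *Cyp1b1*. Some results of the gene lists are not reported here. Other experiments of the study were not analysed here.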

Additional observations from a re-analysis of the deposited data

How the results depend on the processing

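The genotype difference averaged over diets gave 21 to 29 called members when each mouse was left out in turn, and the comparisons within diets gave 9 to 17 fasted, 6 to 16 with sucrose and 10 to 19 with fructose. Feeding gave 3 to 9 for sucrose and 4 to 16 for fructose averaged over genotypes, 0 to 5 and 1 to 9 in control mice, and 0 to 3 and 0 to 8 in mice labelled MED13-LKO. Fructose against sucrose gave 0 to 2, each interaction 0 to 1, and the close-copy sums 14 to 20 (19 of 29 over all mice, 4 higher and 15 lower, or 9 and 7 by equal sums). Beside the close-copy sums, with copies kept single, 12.1% of all genes were called higher and 13.2% lower, or 57.6% and 3.27% by equal sums. With only the compared groups fitted, the genotype difference with fructose fell to 10 members, fructose against fasted to 0 in control mice and 1 (*Cyp2b10*) in mice labelled MED13-LKO, and the sucrose interaction gave 1 (*Cyp2b9*). By equal sums fructose against fasted averaged over genotypes gave 5, and the genotype differences of *Cyp2d22*, *Cyp2d26*, *Cyp2j5* and *Cyp2j6* turned to 0.0643, 0.032, 0.0535 and 0.122. The cause of these shifts was not tested.

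Blocking on the replicate number, the averaged genotype difference gave 25 called members, those within diets 14 fasted, 11 with sucrose and 15 with fructose, and feeding averaged over genotypes 6 for sucrose and 9 for fructose. Whether the replicate numbers paired the mice could not be settled. With 2 mice per group, the spread between mice limits every value here.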
